A study of Mus musculus with 234 samples.

Results

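Described here are the 8 genes *Hspd1*, *Hspe1*, *Hspa9*, *Trap1*, *Lonp1*, *Clpp*, *Clpx* and *Yme1l1*, which encode chaperones and ATP-dependent proteases of mitochondria. They were chosen by name, each matched 1 row of the count table, and together they make up 8 of 55538 features. The values are read counts from single ventricular cardiomyocytes (CMs) of mice that carry human BAG3P209L, a mutated co-chaperone fused to eGFP, and of control mice. The question put to the data was how the mitochondrial protein folding and degradation genes stood in transgenic CMs relative to control CMs.

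The count table covers 234 hand-picked CMs from 5 mice. Control CMs (strain label C57BL/6) were taken from mice M26 and M73, with 24 and 9 cells. According to the study's methods, control animals were siblings of the homozygous mice that could be wild type or carry PGK-Cre or the floxed transgene alone. The titles of the samples name both control mice as wt. Homozygous PGKcre:BAG3P209L mice M25 and M116 gave 21 and 59 CMs with bright eGFP and 18 and 50 CMs with dim eGFP. Mouse M72, labelled heterozygous, gave 27 CMs labelled bright and 26 labelled dim. The transgenic lines were kept on a mixed 129S6/SvEvTac, C57BL/6Ncr and CD-1 background, while the control label reads C57BL/6. In these mice the CAG promoter drives the transgene after PGK-Cre has removed a stop cassette, and the study saw transgene protein in no other cells of the heart than CMs. Homozygous and control mice were 2 weeks old, and the age of mouse M72 is not given in the sources used here. Bright and dim CMs of a homozygous mouse come from the same heart, and both are compared with the same 2 control mice.

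Most mitochondrial proteins are made in the cytosol, enter the organelle unfolded and have to be folded in the matrix. Mortalin, the matrix Hsp70 encoded by *Hspa9*, pulls them in and passes many of them to the chaperonin, a barrel of Hsp60 (*Hspd1*) closed by a lid of Hsp10 (*Hspe1*), while *Trap1* encodes the Hsp90 of mitochondria. Proteins that cannot be folded are degraded by the matrix proteases LONP1 and CLPXP, in which CLPX unfolds and CLPP cuts, and by YME1L1, an inner membrane protease that faces the intermembrane space. In CMs, which are packed with mitochondria, all of these genes are expressed, and several of them can be induced when misfolded proteins build up in the organelle.

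*Hspd1* (chr1:55077835-55088243, minus strand) and *Hspe1* (chr1:55088132-55091307, plus strand) lie head to head, and their annotated spans overlap by 112 bases (GRCm38, GENCODE M21). The 107 bases between the first exons of their basic transcripts are shown because they lie between these genes. *Hspd1* also has an annotated start beyond them, inside the span of *Hspe1*, which is why the spans overlap. Capitals mark a run of 18 bases that holds 2 overlapping matches to a heat shock element of 3 units, searched as the triplets GAA, TTC and GAA with any 2 bases between neighbours, and as TTC, GAA and TTC so that both strands are covered.

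Hspd1-Hspe1 interval, chr1:55088025-55088131, plus strand, RefSeq promoter table, GRCm38.p6: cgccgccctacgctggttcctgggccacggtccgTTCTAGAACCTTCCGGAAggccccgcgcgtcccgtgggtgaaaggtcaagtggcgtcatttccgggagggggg

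Of 32851 promoter windows of the same length, 250 bases before to 50 after a gene's start, 198 (0.603%) hold this element. In this group 1 window of *Hspd1* and that of *Hspe1* have a match, and both read the same bases. Windows were found for 7 of the 8 genes. *Hspa9* had none. *Trap1* (chr16:4039971-4077827, minus strand), whose annotated span overlaps that of *Dnase1* on the other strand by 54 bases, was the only one of these genes with the full cyclic AMP response element TGACGTCA, a palindrome that 1.79% of all windows hold. It is marked in capitals in the 30 bases shown for this gene, the chaperone with the highest fold change against control in the fits with all mice.

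Trap1 promoter, chr16:4077839-4077868, minus strand, RefSeq promoter table, GRCm38.p6: gtcgcgcgccaTGACGTCActgagccgccc

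A match of letters is a description of these windows and does not show that a factor binds there. The palindromic core site of NRF1, found in 0.971% of windows, had no match in these genes' windows, and neither had TGATGNAA or TTNCATCA, an amino acid response element found in 3.97%.

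Before the results, the libraries were compared with their labels. The counts of each mouse and class were added up, which gave 8 sums of 4096609 (M73) to 40508124 counts (bright CMs of M116). The transgene feature hBAG stood at 294 and 232.5 CPM (counts divided by those of the whole sum) in bright CMs of mice M25 and M116, at 10.7 and 99.6 CPM in their dim CMs, and at 0.409 and 0.488 CPM in control CMs. In mouse M72 it went against the labels, with 105 CPM in the sum labelled bright and 251 CPM in the sum labelled dim, so the direction of any difference within this mouse is tied to the label and not to a known transgene level. Endogenous *Bag3* was present in all 8 sums at 156 to 247 CPM. The 8 CM markers were detected in every sum and together took 68020 to 73780 CPM in the 4 homozygous sums, 77060 and 84990 CPM in the controls and 82310 and 88490 CPM in mouse M72. The 6 fibroblast markers summed to 2238 CPM in bright CMs of mouse M25 and to 22.9 to 468 CPM elsewhere. In that sum 1 cell carried 44924 CPM of them, and without it the value was 231 CPM. The 5 immune markers summed to 57.3 and 49.6 CPM in the homozygous dim CMs, against 0.264 to 3.17 CPM in the homozygous bright and control sums. In bright against dim CMs 3 of the 4 tested immune markers (*Lyz2*, *C1qa* and *Csf1r*) had an unadjusted p under 0.05 in edgeR and were lower in bright CMs, and DESeq2 called these 3 while edgeR called 0. In dim against control CMs 3 of 4 had an unadjusted p under 0.05 and were higher in dim CMs, and DESeq2 called *Lyz2* and *Csf1r* while edgeR called 0. The 5 endothelial markers summed to 142 and 139.9 CPM in the homozygous dim CMs, to 46.0 and 59.7 CPM in the bright CMs of the same mice and to 48.9 and 112 CPM in control mice M26 and M73. In bright against dim CMs 4 of these 5 had an unadjusted p under 0.05 in edgeR, and neither edgeR nor DESeq2 called any. The 4 markers of mural cells summed to 195.7 to 333 CPM over the 8 sums. Of the 3 tested, *Rgs5* was lower in bright CMs against control (-1.80) and against dim CMs (-1.12), with an unadjusted p under 0.05 in edgeR in both. Neither edgeR nor DESeq2 called a mural marker. The part of all these cell type markers in the results was not tested, except that the bright comparisons were repeated without the 1 fibroblast-rich cell.

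All 8 genes were expressed in most CMs. *Hspd1* had a count in 224 of 234 cells, *Hspa9* in 220, *Hspe1* in 218, *Trap1* in 210, *Clpx* in 203, *Lonp1* and *Clpp* in 200 each, and *Yme1l1* in 192. Levels between genes were compared as normalized CPM (CPM corrected by the TMM factor of the sum) per kilobase of annotated exon. The medians over the 8 sums were 91.4 for *Hspd1*, 87.4 for *Hspa9*, 83.3 for *Clpp* and 71.0 for *Hspe1*, and the ranges of these 4 genes overlapped. *Trap1* followed with a median of 46.6 per kilobase (27.1 to 60.0), which overlapped the range of *Hspe1* (50.1 to 109) and stayed below that of *Hspd1* (75.6 to 103). *Clpx* (26.3, range 13.5 to 32.3) and *Lonp1* (20.2, range 17.5 to 26.7) could not be ordered by their ranges, and that of *Clpx* also reached into that of *Trap1*. *Yme1l1* was the lowest per kilobase in all 8 sums, with 4.76 to 9.63, on an exon union of 8009 bases that is the longest of the group. The genes varied between sums by 1.36-fold (*Hspd1*) to 2.39-fold (*Clpx*), taken as the highest over the lowest normalized CPM.

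**Figure D1:**
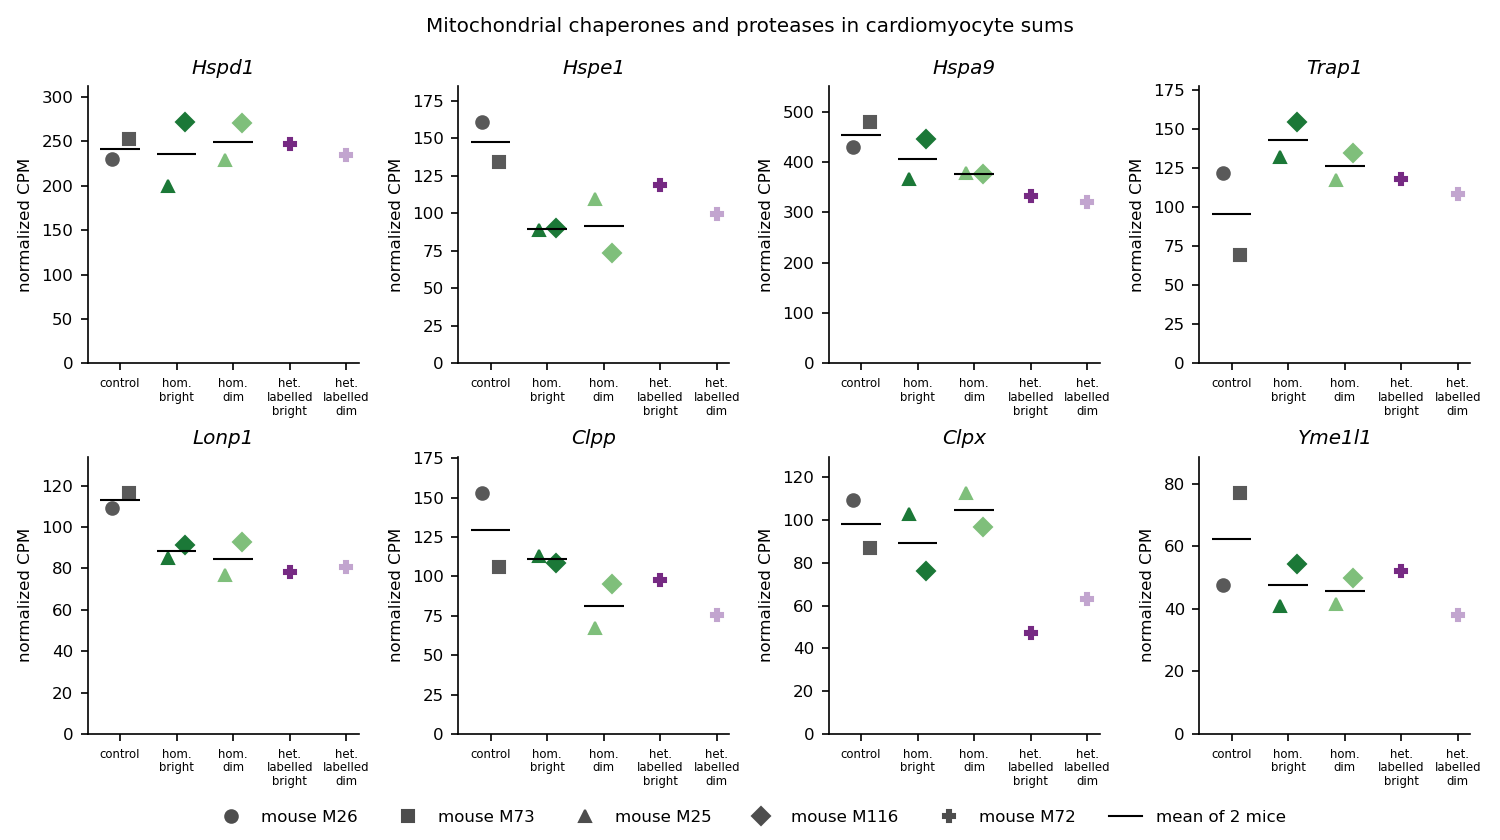
Normalized CPM (vertical axes, from 0) of the 8 genes in control, homozygous (hom.) bright and dim, and heterozygous (het.) CMs, with 1 point for each mouse and a line at the mean of 2 mice. Both homozygous mice lie below both control mice for *Hspe1* in bright (88.6 and 90.0) and dim CMs (109.6 and 73.8), while *Hspd1* overlaps between the groups.

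*Hspe1*, the lid of the chaperonin, stood at 161 and 134 normalized CPM in control CMs of mice M26 and M73. In mice M25 and M116 it stood at 88.6 and 90.0 when bright CMs were taken and at 109.6 and 73.8 when dim CMs were taken. Both homozygous mice were thus below both controls in each class on this scale. In CPM by library size alone this held in bright CMs, while dim CMs of mouse M25 (113.5) came level with control mouse M73 (113.0). The titles carry a GL number, not explained there, which is the same for mice M25 and M26 and the same for M116, M73 and M72, although M116 was on other plates than M73. Within each of these numbers the homozygous mouse was also below the control mouse, on both scales. The mean was 147.5 ± 18.7 in control, 89.3 ± 0.971 in bright and 91.7 ± 25.3 in dim CMs (SD, n = 2 mice each). The log2 fold change against control was -0.74 ± 0.33 (SE) in bright CMs (edgeR's quasi-likelihood test, adjusted p = 0.802) and -0.70 ± 0.38 in dim CMs (adjusted p = 0.934 by edgeR), so neither passed the test. In these fits with all mice it was the lowest fold change of the 8 genes. *Yme1l1* was lower in both comparisons without control mouse M26, *Clpp* was lower in dim CMs without control mouse M73, and *Clpp*, *Yme1l1* and *Lonp1* were all lower in dim CMs without those of mouse M116. *Hspe1* kept its sign under every alternative run, from -1.35 to -0.43 in bright and from -1.33 to -0.42 in dim CMs. In dim CMs it was -0.45 without those of mouse M116, and with library size alone it was -0.43 in bright and -0.42 in dim CMs.

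*Hspd1*, the barrel, overlapped between the groups. Normalized CPM was 230.5 and 253 in control CMs, 199.6 and 272 in bright CMs and 229 and 271 in dim CMs, in the same order of mice. Mouse M116 was the highest in both classes. Its log2 fold change was -0.06 ± 0.31 in bright CMs (adjusted p = 0.989 by edgeR) and 0.03 ± 0.31 in dim CMs (adjusted p = 0.999 by edgeR), with a sign that turned under several alternatives, among them scaling by library size alone in bright CMs (0.27). That scaling gave 0.33 in dim CMs.

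The ratio of *Hspe1* to *Hspd1* counts within a sum does not depend on how sums are scaled. It was 0.697 (0.665 to 0.732) in control mouse M26 and 0.531 (0.473 to 0.595) in control mouse M73, with exact binomial 95% intervals that cover counting error only. In mouse M73 the highest cell for each gene held 39.7% of the *Hspd1* counts and 21.0% of the *Hspe1* counts. For bright CMs mouse M25 had 0.444 (0.420 to 0.470) and mouse M116 had 0.331 (0.320 to 0.343). For dim CMs the values were 0.479 (0.455 to 0.505) and 0.272 (0.261 to 0.284). Every homozygous value was below both control values, though the intervals of dim CMs of mouse M25 and of control mouse M73 overlapped. The log2 difference from control was -0.67 in bright and -0.75 in dim CMs. The second value rested on mouse M116, since it came to -0.34 without that mouse and to -1.16 without mouse M25, and in dim CMs it was -1.16 when medians over cells were taken. The bright value came to -0.45 without mouse M116 and to -0.88 without mouse M25. It was -0.47 without control mouse M26, -0.86 without control mouse M73 and -0.93 with medians over cells. An exact permutation test over mice (two-sided, 2 against 2) gave p = 0.33 for each, the smallest p this design allows. Bright and dim CMs overlapped, with a log2 difference of 0.09 (paired exact permutation p = 1.0). In mouse M72 the ratio was 0.481 (0.453 to 0.511) in CMs labelled bright and 0.424 (0.398 to 0.451) in CMs labelled dim, below the lower control value in both. Taken as the median over cells that had counts of both genes, the ratio was 0.973 in the 8 such cells of mouse M73 and 0.635 in the 20 of mouse M26, against 0.256 to 0.495 in the 4 homozygous sums. Because the annotated spans overlap and SMART-seq2 libraries do not mark the strand, reads in the 112 shared bases cannot be assigned to one gene.

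**Figure D2:**
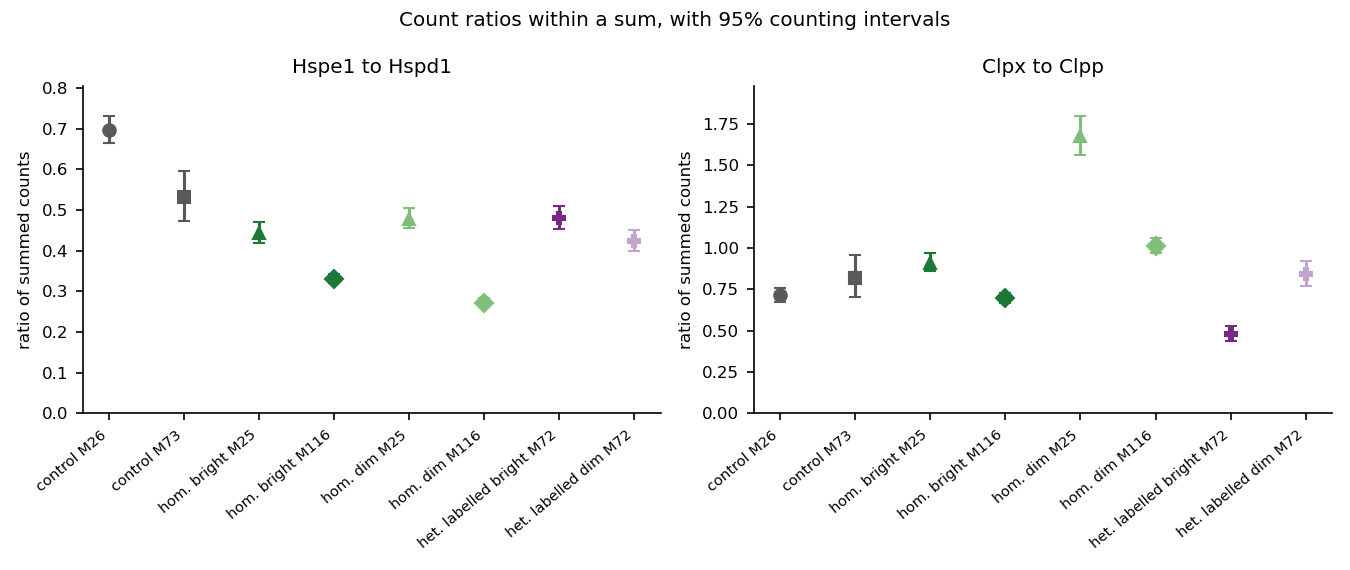
Ratio of summed counts (vertical axes, from 0) of *Hspe1* to *Hspd1* and of *Clpx* to *Clpp* in each of the 8 sums, with exact 95% counting intervals. The homozygous *Hspe1* to *Hspd1* ratios lie between 0.272 and 0.479 and the control ratios at 0.531 and 0.697, while for *Clpx* to *Clpp* the dim CMs of mouse M25 stand highest at 1.68.

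*Hspa9*, the import motor and folding Hsp70 of the matrix, stood at 429 and 479 normalized CPM in control CMs, at 367 and 445 in bright CMs and at 377 and 376 in dim CMs. Dim CMs were below both controls with this scaling, and bright CMs overlapped them. In CPM by library size alone dim CMs (391 and 411) overlapped the controls (392 and 403). Against control, the log2 fold change was -0.19 ± 0.28 in bright (adjusted p = 0.966 by edgeR) and -0.29 ± 0.29 in dim CMs (adjusted p = 0.999 by edgeR), and both signs turned with library size alone (0.15 and 0.013). The bright value was -0.006 without mouse M25, -0.07 without control mouse M73 and -0.33 without mouse M116.

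*Trap1*, the mitochondrial Hsp90, had the highest fold change of the 8 genes against control in the fits with all mice. Its normalized CPM was 122 and 69.6 in control CMs, 132 and 154 in bright CMs and 117 and 135 in dim CMs. Bright CMs were above both controls, but control mouse M73, with 9 cells, stood far below the other 7 sums, and dim CMs overlapped the controls. The log2 fold change was 0.56 ± 0.39 in bright (adjusted p = 0.910 by edgeR) and 0.38 ± 0.40 in dim CMs (adjusted p = 0.999 by edgeR). With library size alone these values were 0.87 and 0.66. With each cell given equal weight they were 1.00 and 0.95, where the median of all features was 0.495 and 0.487. Without control mouse M26 they came to 1.00 and 0.84, in fits where the median of all features was 0.94 and 0.92. Without mouse M73 they came to 0.24 and 0.05, and *Hspd1* was then highest in dim CMs. Relative to the median of all features in the fits without mouse M73 (0.20 and 0.17), *Trap1* was 0.04 higher in bright and lower in dim CMs (-0.13).

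*Lonp1*, the main soluble protease of the matrix, stood at 109 and 117 normalized CPM in control CMs, at 85.3 and 91.5 in bright CMs and at 76.7 and 92.9 in dim CMs. Both classes were below both controls on this scale. In CPM by library size alone mouse M116 (102 in bright and 101.5 in dim CMs) was above both controls (99.9 and 98.1). On the log2 scale the fold change was -0.38 ± 0.34 in bright (adjusted p = 0.935 by edgeR) and -0.43 ± 0.35 in dim CMs (adjusted p = 0.991 by edgeR). Of the *Lonp1* counts of mouse M73, 73.4% came from 1 cell, and the median over its 8 cells with at least 1000 genes was 15.3 CPM against 92.2 CPM in mouse M26. With library size alone these values were -0.05 and -0.13. The dim value was -0.25 without mouse M25 and -0.58 without mouse M116. With each cell given equal weight the log2 difference was 0.08 in bright and 0.09 in dim CMs.

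*Clpp*, the cutting subunit of CLPXP, stood at 153 and 106 normalized CPM in control CMs, at 113 and 109 in bright CMs and at 67.2 and 95.3 in dim CMs. Dim CMs were below both controls and below both bright sums on this scale. In CPM by library size alone they stayed below both bright sums, but those of mouse M116 (104) were above control mouse M73 (89.1). The log2 fold change was -0.24 ± 0.35 in bright (adjusted p = 0.959 by edgeR) and -0.69 ± 0.39 in dim CMs against control (adjusted p = 0.956 by edgeR), and 0.44 ± 0.26 in bright against dim CMs (adjusted p = 0.999 by edgeR). The value of dim against control CMs ranged from -0.97 (without dim CMs of mouse M116) to -0.29 (with equal cell weight) over the alternatives run, and was -0.41 without dim CMs of mouse M25 and -0.40 with library size alone. That of bright against dim CMs ranged from 0.21 (without dim CMs of mouse M25) to 0.72 (without those of mouse M116). That of bright against control CMs turned with library size alone (0.06). Summed endothelial and immune markers were also higher in the dim than in the bright CMs of both mice, and their part in these values was not tested.

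*Clpx*, the unfolding subunit, stood at 109 and 86.7 normalized CPM in control CMs, at 103 and 76.0 in bright CMs and at 113 and 96.75 in dim CMs, and all groups overlapped. Its log2 fold change was -0.15 ± 0.37 in bright (adjusted p = 0.977 by edgeR) and 0.08 ± 0.36 in dim CMs (adjusted p = 0.999 by edgeR), with signs that turned with library size alone in bright CMs (0.15) and without control mouse M73 in dim CMs (-0.07). In dim CMs it was 0.36 with library size alone.

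The ratio of *Clpx* to *Clpp* counts was 0.713 (0.672 to 0.755) and 0.819 (0.701 to 0.957) in control mice M26 and M73. For dim CMs mouse M25 had 1.68 (1.56 to 1.80) and mouse M116 had 1.01 (0.969 to 1.06), above both controls. Bright CMs had 0.912 (0.858 to 0.968) and 0.698 (0.668 to 0.729), which overlapped the control values. Within both homozygous hearts the ratio was lower in bright than in dim CMs. The log2 difference of dim from control CMs was 0.77, with 0.41 without mouse M25 and 1.13 without mouse M116 (exact permutation p = 0.33, two-sided, the smallest possible) and that of bright from dim CMs was -0.71, with -0.42 for medians over cells (paired exact permutation p = 0.5, the smallest possible with 2 pairs). In mouse M72 the ratio was 0.481 (0.436 to 0.530) in CMs labelled bright and 0.840 (0.767 to 0.919) in CMs labelled dim, and in this animal the class labelled dim had the higher transgene level.

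*Yme1l1*, the inner membrane protease, stood at 47.5 and 77.1 normalized CPM in control CMs, at 41 and 54.4 in bright CMs and at 41.5 and 49.8 in dim CMs. All groups overlapped. The log2 fold change was -0.41 ± 0.47 in bright (adjusted p = 0.95 by edgeR) and -0.47 ± 0.47 in dim CMs (adjusted p = 0.999 by edgeR), and with library size alone it was -0.06 and -0.15. In mouse M73 1 cell held 75.6% of the *Yme1l1* counts and 3 of 8 cells had none. Without this mouse the fold change came to 0.01 in bright and -0.07 in dim CMs, and without control mouse M26 to -0.73 and -0.77. Leaving out mouse M25 gave -0.18 in bright and -0.30 in dim CMs, and leaving out mouse M116 gave -0.64 in bright CMs.

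**Figure D3:**
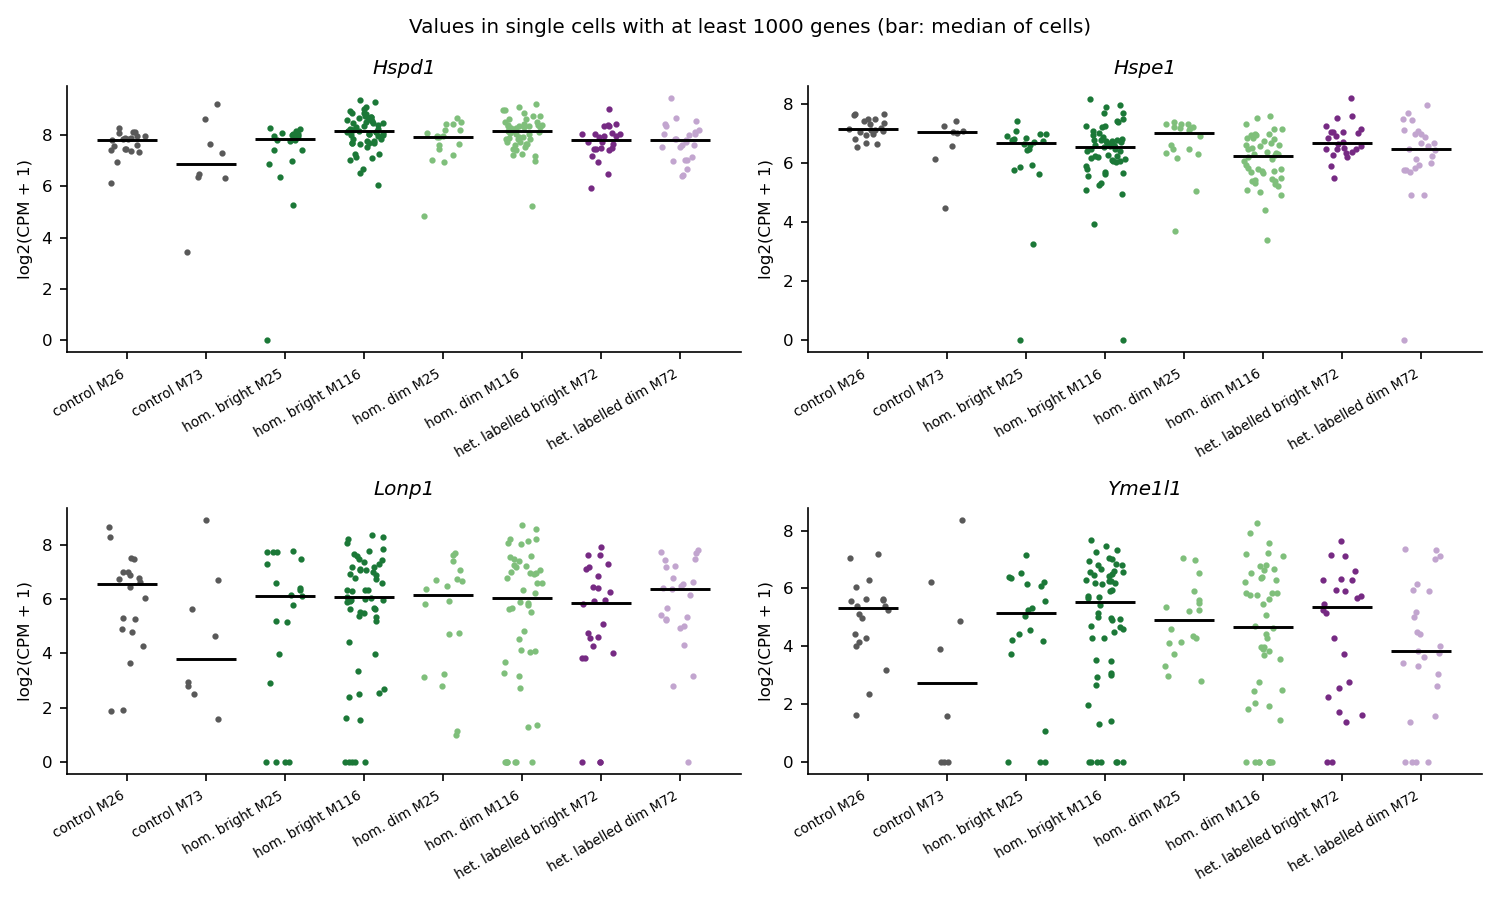
Log2(CPM + 1) of *Hspd1*, *Hspe1*, *Lonp1* and *Yme1l1* (vertical axes) in the 219 cells with at least 1000 genes, with 1 point for each cell and a bar at the median of the cells of a mouse and class. *Hspd1* and *Hspe1* are found in nearly every cell, while *Lonp1* and *Yme1l1* scatter from 0 to high values, with 1 high cell in control mouse M73.

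None of the 8 genes passed the threshold in any of the 3 comparisons. In bright against control CMs 0 of 8 were called by edgeR at an adjusted p under 0.05 and 0 of 8 had an unadjusted p under 0.05, the smallest being 0.0615 for *Hspe1*, and DESeq2 called 0 of 8. Over all 12203 features tested the same fit called 2 (0.0164%), which were hBAG and BAG-eGFP. DESeq2 called 106 of these features, and by edgeR 799 of them stood at an unadjusted p under 0.05. In dim against control CMs edgeR called 0 of 8 genes and 0 of 12195 features (0.0%), of which 759 had an unadjusted p under 0.05 (none of the 8), and DESeq2 called 55 features (0 of the 8). In bright against dim CMs edgeR called 0 of 8 genes and 0 of 13439 features (0.0%), of which 554 had an unadjusted p under 0.05 (none of the 8), and DESeq2 called 89 features (0 of the 8).

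Groups that did not overlap in normalized CPM were counted in the same way for the 8 genes and for all features. In bright against control CMs *Trap1* was the 1 gene of 8 with both homozygous mice above both controls, against 24.6% of all features, and *Hspe1* and *Lonp1* were the 2 of 8 below, against 14.3%. In dim against control CMs 0 of 8 lay above, against 24.1%, and 4 of 8 lay below (*Hspe1*, *Hspa9*, *Lonp1* and *Clpp*), against 13.7%. In bright against dim CMs *Clpp* was the 1 of 8 above, against 15.3%, and 0 of 8 lay below, against 15.8%. These counts changed with the scale. In CPM by library size alone, bright against control CMs had *Trap1* above (33.7% of all features) and only *Hspe1* below (8.24%), and dim against control CMs had *Hspd1*, *Clpx* and *Trap1* above (3 of 8, against 32.5%) and 0 of 8 below (8.09%). *Clpp* was again the 1 of 8 above in bright against dim CMs (16.2%), with 0 of 8 below (14.7%). As summed CPM, the immune and endothelial markers were higher in the homozygous dim sums than in the control and homozygous bright sums. Among the endothelial genes *Kdr* and *Pecam1* were not above control mouse M73 in normalized CPM, and among the immune genes *Ptprc* was at 0 in dim CMs of mouse M25. In the dim comparisons the part of these markers in the counts was not tested.

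The direction of the group depended on the scale. In bright against control CMs 7 of 8 genes had a negative log2 fold change with TMM, 3 of 8 with library size alone and 1 of 8 with equal weight for each cell. The median of all features moved along, from 0.11 with TMM to 0.41 with library size alone and 0.49 with equal cell weight, and 7 of 8 genes stood below that median in each of these 3 fits. The median of the 8 genes was -0.21 with TMM. In dim against control CMs 5 of 8 were negative, with a median of -0.36 against 0.10 for all features, and 7 of 8 stood below the median of all features. The 8 CM markers had lower medians, with all 8 negative in bright against control CMs (median -0.71, 4 of 8 at an unadjusted p under 0.05, lowest *Ryr2* at -1.32) and 7 of 8 in dim against control CMs (median -0.67, 1 of 8), though 0 of 8 were called by edgeR or DESeq2. With library size alone their medians were -0.38 in both. Their part in the direction of the 8 mitochondrial genes was not tested. In dim against control CMs 4 of the 8 mitochondrial genes were negative with library size alone (median -0.06 against 0.38) and with equal cell weight 2 of 8 (median 0.10 against 0.49), and in each 7 of 8 were below the median of all features. Without the fibroblast-rich cell of mouse M25, an alternative added after the data were seen, 7 of 8 genes were still negative in bright against control CMs, with a median of -0.16. In bright against dim CMs the 8 genes lay on both sides of 0, with 5 positive and a median of 0.05 against -0.01 for all features.

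**Figure D4:**
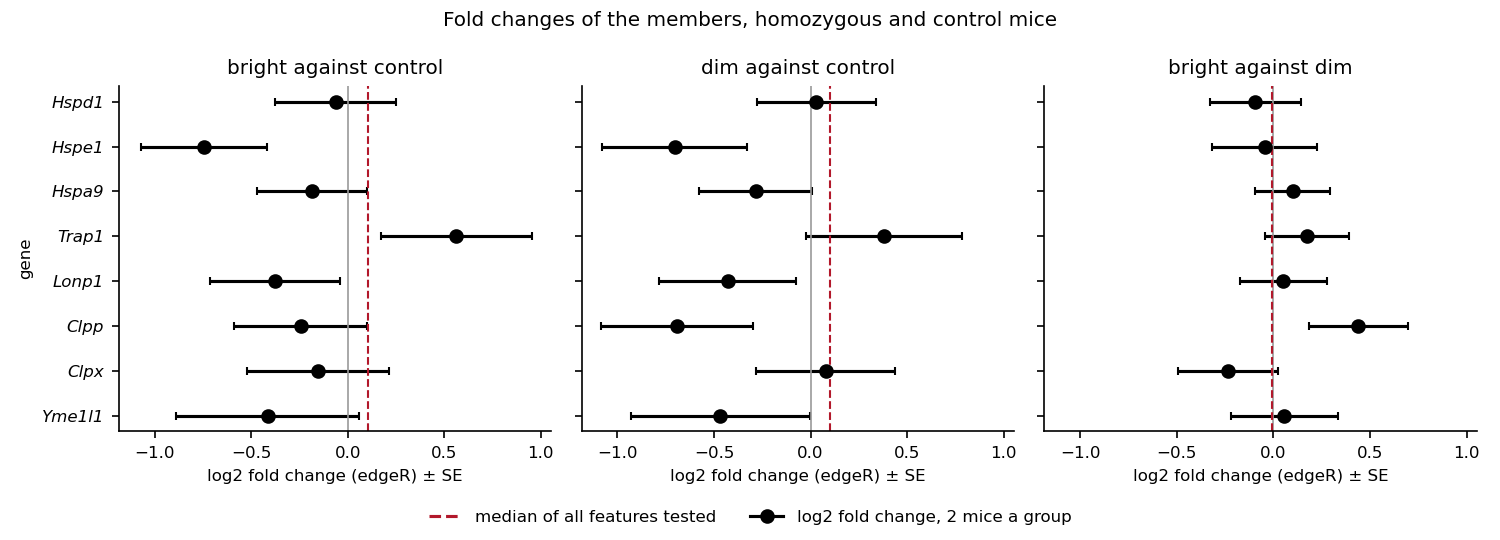
Log2 fold change (horizontal axes, edgeR with TMM) of the 8 genes with its SE in the 3 comparisons of 2 mice a group, and a dashed line at the median of all features tested. In these fits with all mice *Hspe1* stands lowest against control CMs (-0.74 in bright, -0.70 in dim) and *Trap1* highest (0.56 and 0.38), and against dim CMs bright CMs differ most in *Clpp* (0.44). With library size alone *Hspd1*, *Hspa9*, *Clpp* and *Clpx* turn to positive values in bright against control CMs, and *Hspa9* in dim against control CMs.

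In mouse M72 there was 1 animal and therefore no test. Against the class labelled dim, the class labelled bright had 1.30 times the *Clpp* level (95% counting interval 1.20 to 1.41), 1.36 times that of *Yme1l1* (1.22 to 1.53) and 1.19 times that of *Hspe1* (1.11 to 1.28). *Clpx* was lower, at 0.746 times (0.672 to 0.827). The other 4 genes had ratios from 0.970 (*Lonp1*) to 1.09 (*Trap1*). *Clpx* stood at 47.1 normalized CPM in CMs labelled bright and at 63.2 in CMs labelled dim, both below the 6 homozygous and control sums. *Hspa9* (333 and 321) was also below the other 6 sums.

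Genes that work with these 8 were described from fixed lists by their counts, and no gene of the 5 lists named here passed the threshold in edgeR in any comparison. At an unadjusted p under 0.05 stood 4 of the 61 tested genes in bright against control CMs (*Timm44*, *Dnajc15*, *Mipep* and *Ddit3*), that is 6.56% against 6.55% of all features. In dim against control CMs there were 2 of 61 (*Mipep* and *Ddit3*), or 3.28% against 6.22%, and in bright against dim CMs 0 of 61 against 4.12%. These shares do not set the lists apart, and DESeq2 called 0 of them in each comparison. Partners of the chaperones, such as nucleotide exchange factors and J proteins of mortalin, had 3 of 10 genes higher and 7 lower in bright against control CMs, with a median of -0.37 against 0.11 for all features. *Timm44*, which ties mortalin to the import channel, was lowest at -0.96 ± 0.36 (adjusted p = 0.720 by edgeR), and *Clpb*, a disaggregase of the intermembrane space, was highest at 0.55 ± 0.92. In dim CMs 5 of 10 were higher, with the same genes at the ends (-0.83 and 0.84). Other mitochondrial proteases and their scaffolds had 6 of 16 genes higher in bright CMs (median -0.13), from *Htra2* (-1.84 ± 1.19), a protease of the intermembrane space, to *Pmpca* (1.02 ± 0.68), a subunit of the mitochondrial processing peptidase. In dim CMs 6 of 16 were higher (median -0.05), from *Htra2* (-2.07 ± 1.24) to *Parl* (0.51 ± 0.53), a rhomboid protease of the inner membrane.

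Import channel genes had 4 of 16 tested genes higher in bright against control CMs (median -0.25), from *Timm17b* (-1.22 ± 0.67) to *Timm50* (0.38 ± 0.47), both parts of the inner membrane translocase. In dim CMs 5 of 16 were higher (median -0.16), again with *Timm17b* lowest (-1.21 ± 0.67) and with *Timm21* highest (0.62 ± 0.60). Among 8 regulators of the stress responses that can induce chaperone genes, 3 were higher in bright CMs (median -0.20). *Ddit3*, the stress transcription factor CHOP, was lowest at -2.56 ± 0.77 in bright (adjusted p = 0.663 by edgeR) and -2.56 ± 0.73 in dim CMs (adjusted p = 0.735 by edgeR). *Chac1*, a glutathione-degrading enzyme, was highest at 1.54 ± 1.31 in bright and 0.79 ± 1.46 in dim CMs. *Ddit3* is named in 2 rows of the table, of which 1 passed the filter. Mitochondrial enzymes and carriers outside protein quality control, taken as a reference, had 5 of 11 genes higher in bright (median -0.11) and 7 of 11 higher in dim CMs (median 0.10), from *Ogdh* (-0.45 and -0.33), a subunit of a citric acid cycle enzyme, to *Tfam* in bright (0.50) and *Vdac3* in dim CMs (0.43). With library size alone the bright medians of these lists shifted up with that of all features, to -0.06, 0.18, 0.07, 0.07 and 0.20 in the order given, so that only the partners stayed negative. The dim medians shifted to 0.19, 0.24, 0.12, -0.03 and 0.38 in the same order, against 0.38 for all features. Among these only that of the regulators was negative.

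Across single cells the 8 genes varied with little relation to each other. Over the 219 cells with at least 1000 genes, and after the mean of each mouse and class was taken off log2(CPM + 1), the 28 pairs of genes had a median Pearson correlation of 0.14, from -0.01 (*Clpp* and *Yme1l1*) to 0.28 (*Hspe1* and *Trap1*). *Hspd1* and *Hspe1* correlated at 0.11 and *Clpp* and *Clpx* at 0.14. Single sums gave other values. Within bright CMs of mouse M116 pairs ranged from -0.36 (*Hspd1* and *Yme1l1*) to 0.45 (*Lonp1* and *Yme1l1*). Within its dim CMs they ranged from -0.27 (*Clpp* and *Yme1l1*) to 0.36 (*Clpp* and *Trap1*). *Hspd1* and *Hspe1* correlated there at 0.03 in bright and -0.11 in dim CMs. Points of a mouse and class share an animal, and the values also move with the depth of a cell, with correlations to log2 counts per cell from 0.06 (*Hspd1*) to 0.47 (*Trap1*), so these correlations are a description without a test.

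Among 4918 other features detected in at least 50% of these cells, those most like *Hspd1* were *Atp5c1*, a subunit of the ATP synthase (0.52), *Fth1*, the ferritin heavy chain (0.52), and *Idh2*, the mitochondrial isocitrate dehydrogenase (0.52). The median correlation of a gene with all these features ran from 0.06 (*Hspd1*) to 0.14 (*Trap1*). The 95th percentile ran from 0.20 (*Clpx*) to 0.34 (*Hspe1*). The feature most like *Hspe1* was *Ndufa7*, a subunit of respiratory complex I (0.66), and that most like *Hspa9* was *Map1lc3a*, an autophagosome protein (0.64). For *Trap1* it was *Mrps33* (0.48) and for *Clpp* *Mrps36* (0.38), both named as mitochondrial ribosomal proteins. For *Clpx* it was *Fyco1* (0.36) and for *Yme1l1* it was *Nedd8*, a ubiquitin-like protein (0.38).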

How the data were processed

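Single CMs were isolated by Langendorff dissociation, picked by hand and sequenced by SMART-seq2, which attaches no molecular identifiers. The authors mapped the reads with STAR to a mouse genome that held the transgene, and deposited raw counts per gene. Build, annotation and strand column are not given in the sources used here. The table left 0 columns unused. Cells held 487 to 1392253 counts.

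Counts were summed per mouse and class, since the mouse is the replicate. Sums were fitted with edgeR 4.0.16 (R 4.3.3; filterByExpr, TMM, two-sided quasi-likelihood test, Benjamini-Hochberg over all features, threshold 0.05) and tested on simulated data. Bright and dim sums come from the same mice, but the main edgeR fit of bright against dim CMs did not pair them. Pairing by mouse was an alternative, in which *Clpp* in bright against dim CMs came to 0.46 ± 0.22 (SE). The SE printed with an edgeR log2 fold change is the size of that change divided by the square root of the F statistic. Ratios were compared with exact permutation tests (scipy 1.17.1). The GL numbers in the titles, whose meaning is not given in the sources used here, were shared by mice M25 and M26 and by mice M116, M73 and M72. Alternatives were DESeq2 1.42.0, library size, no filter, cells with at least 1000 genes, all groups in 1 fit, equal cell weight (limma 3.58.1, log2(CPM + 1)), blocks and each mouse left out. Genes and lists were chosen with earlier results of these data known. The text names the 8 genes, the highest and lowest of each list, and the features most correlated with each gene, of which that of *Lonp1* is not reported here. Positions come from GENCODE M21 and RefSeq (GRCm38).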

Additional observations from a re-analysis of the deposited data

How the results depend on the processing

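Of 280 alternative values of the 8 genes, 247 kept their sign, 33 turned it and 0 passed the threshold, and the causes of the turns were not tested. With library size alone, bright against control turned for *Hspd1* (0.27), *Hspa9* (0.15), *Clpp* (0.063) and *Clpx* (0.15), and dim against control for *Hspa9* (0.013). With equal cell weight, bright against control turned for *Hspd1* (0.34), *Hspa9* (0.16), *Clpp* (0.14), *Clpx* (0.13), *Lonp1* (0.081) and *Yme1l1* (0.12), dim against control for *Hspa9* (0.043), *Lonp1* (0.095) and *Yme1l1* (0.11), and bright against dim for *Lonp1* (-0.014). DESeq2 turned *Hspd1* in dim against control (-0.006), and leaving out the fibroblast-rich cell, chosen after seeing the data, turned *Hspe1* in bright against dim (0.003). With 1 mouse left out, where a lone sum takes its spread from the other group, bright against control ranged from -0.30 to 0.19 for *Hspd1*, from -0.46 to 0.028 for *Clpp*, from -0.34 to 0.046 for *Clpx* and from -0.73 to 0.013 for *Yme1l1*. Dim against control ranged from -0.10 to 0.20 for *Hspd1* and from -0.066 to 0.26 for *Clpx*. Bright against dim ranged from -0.32 to 0.11 for *Hspd1*, from -0.29 to 0.27 for *Hspe1*, from -0.037 to 0.23 for *Hspa9*, from -0.076 to 0.21 for *Lonp1* and from -0.15 to 0.24 for *Yme1l1*. The log2 *Clpx* to *Clpp* ratio, bright against control, ranged from -0.13 to 0.26, and the *Hspe1* to *Hspd1* ratio, bright against dim, from -0.11 to 0.28. Calls over all features in bright against control, 2 in the report, were 106 with DESeq2, 5 with all groups in 1 fit, 0 with equal cell weight (limma, 1036 at an unadjusted p under 0.05), 163 without a filter, 10 with the GL number of the titles as a block and 0 (without control mouse M26) to 41 (without mouse M116) with 1 mouse left out. Those in dim against control, 0 in the report, were 55, 1, 0 (1122 unadjusted), 58, 12 and 3 to 827, the last without control mouse M26, which left the 9 cells of mouse M73 as the control. Those in bright against dim, 0 in the report, were 89 with DESeq2, 217 without a filter and 0 to 74 with 1 sum left out, the last without bright CMs of mouse M116. The mouse as a replicate block for the paired bright and dim sums gave 0 calls (468 at an unadjusted p under 0.05) and changed no call of the 8 genes. Depth limits the control group most, since mouse M73 gave 4096609 counts. In this mouse the highest cell held from 21.0% (*Hspe1*) to 75.6% (*Yme1l1*) of the counts of a gene. With 2 mice a group the spread between mice is poorly known, and the edgeR and DESeq2 p-values also draw on the spread of other features. Reads without molecular identifiers are not independent molecules.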

Other observations

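Relatives of these chaperones in the cytosol and the endoplasmic reticulum were also read. Of 13 genes, 8 were higher in bright against control CMs, at a median of 0.31 on the log2 scale against 0.11 for all features, and 7 were higher in dim CMs, with a median of 0.13. With library size alone the medians were 0.62 in bright CMs, against 0.415 for all features, and 0.42 in dim CMs, against 0.383. *Cct8*, a subunit of the cytosolic chaperonin, was highest in bright CMs at 1.07 ± 0.52 (adjusted p = 0.843 by edgeR), *Cct5*, another subunit, was highest in dim CMs at 0.86 ± 0.65, and *Hspa5*, the Hsp70 of the endoplasmic reticulum, was lowest in both (-0.37 and -0.61). No gene of this list passed the threshold in edgeR, and 0 of 13 had an unadjusted p under 0.05 in either comparison, and DESeq2 called 0. In bright against dim CMs *Hsp90aa1*, an inducible cytosolic Hsp90, was highest at 0.49 ± 0.20 (adjusted p = 0.999 by edgeR).

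Immediate-early genes, which can be induced while hearts are dissociated, summed to 536 and 461 CPM in bright and to 167 and 560 CPM in dim CMs of mice M25 and M116, against 146 and 62.7 CPM in control mice M26 and M73. *Atf3*, one of them, stood at 9.65 and 12.2 normalized CPM in control mice M26 and M73, at 35.6 and 220.8 in bright and at 30.6 and 289 in dim CMs of mice M25 and M116. Both homozygous mice were above both controls, and mouse M116 was far above mouse M25. Its fit gave a log2 fold change of 3.54 ± 0.90 in bright (adjusted p = 0.663 by edgeR) and 3.86 ± 1.01 in dim CMs (adjusted p = 0.735 by edgeR). DESeq2 called it in both, at 3.50 ± 0.83 (adjusted p = 0.00877) and 3.82 ± 0.84 (adjusted p = 0.00347), and called no other gene of this list. The part of these genes in the values of the mitochondrial genes was not tested.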
